A study of Homo sapiens with 6 samples.

Results

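Mucin-type glycosyltransferases and sialyltransferases are the Golgi enzymes that build, branch, extend and cap the O-linked sugar chains of mucins. The group described here also holds relatives of the same families that act on N-glycans, glycolipids and proteoglycans. Members were the genes whose annotated symbol starts with GALNT, GCNT, B3GNT, B3GALT, B4GALT, ST3GAL, ST6GAL, ST8SIA, CHST or FUT followed by a digit, together with C1GALT1 and C1GALT1C1. A member needed a probe with a detection p under 0.05 on 3 or more arrays, and each gene is read by its detected probe with the highest mean. This gave 53 of the 86 genes with such a symbol on the array, out of 10781 named genes with a detected probe. Of the 53, 46 were detected on all 6 arrays and 7 on fewer. They comprise 52 genes for enzymes or chaperones and FUT8-AS1, an antisense RNA gene that the rule takes in by its symbol.

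Capan1 is an established, well differentiated human pancreatic cancer line. In 3 samples it was grown on gels of type I collagen and Matrigel that held PS1 cells, a human pancreatic stellate cell line, and in 3 samples on gels without them. Gels were raised onto grids at 24 hours and harvested on day 10, and the cancer cell layer was captured from frozen sections by laser microdissection and read on Illumina BeadChips. All samples are of 1 cancer line, and the groups follow the titles, since another label names PS1 for all 6 samples. In a captured layer, a smaller share of cells expressing a gene and less of its RNA in each cell cannot be told apart.

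O-glycosylation of mucins begins when a polypeptide GalNAc transferase (GALNT) puts GalNAc on a serine or threonine. C1GALT1, with its chaperone C1GALT1C1, adds galactose to form core 1, and B3GNT6 adds GlcNAc to form core 3, and GCNT enzymes branch these into core 2 and core 4. Chains are then lengthened by B3GNT and B4GALT enzymes and capped with sialic acid by ST3GAL and ST6GAL enzymes, with fucose by FUT enzymes, or with sulphate by CHST enzymes. Secretory epithelia and pancreatic cancers carry much of their blood group, Lewis and sialyl Lewis structures on such chains.

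Between 16325 and 19602 of 47228 probes were detected per array, with mean deposited signals of 273 to 494 intensity units. Replicate 3 with stellate cells stood apart. It had the fewest probes detected, a log2 intensity of 12.85 at a 28S ribosomal RNA probe against 5.97 to 8.32 on the other arrays, and of 12.10 at an 18S probe against 7.11 to 8.78. Over the 53 members, the median distance of that array from the mean of the other 2 of its group was 0.49 on the log2 scale, against 0.16 to 0.39 for the other arrays, and over all tested probes it was 0.34 against 0.17 to 0.24. It gave the lowest value of its group in 25 members and the highest in 20. The counts of members and of list genes past the threshold are therefore also given without it, and the part of ribosomal RNA in the results was not tested. The epithelial markers KRT19, KRT8, KRT18, EPCAM, CDH1 and MUC1 were detected on all 6 arrays. With all arrays 1 of the 6, MUC1, passed higher, beside 4.02% of all tested probes. Without replicate 3 with stellate cells 2 of the 6 passed higher, beside 15.1% of the probes. Of 20 stellate and fibroblast markers 9 were detected on no array and 6 were measured, COL1A1, COL6A1, COL6A3, ACTA2, TAGLN and VIM, of which COL6A1 fell with stellate cells (log2 change -1.31, limma adjusted p = 0.0216). TAGLN and ACTA2 had changes of 0.87 and -1.04, with groups apart (limma adjusted p = 0.0674 and 0.0526). COL6A3, COL1A1 and VIM had changes of 0.62, 0.13 and -0.07 (limma adjusted p = 0.397, 0.827 and 0.928). Without replicate 3 with stellate cells 2 of the 6 passed higher, TAGLN among them, and 2 lower, COL6A1 and ACTA2, beside 15.1% of all tested probes. By its values the other higher one was probably COL6A3. Its log2 intensities were 5.49 and 6.55 on replicates 1 and 2 beside stellate cells and 5.35, 4.86 and 4.95 alone. TAGLN also passed with cyclic loess, with array weights and without the intensity trend. The summed intensity over the probes of the 20 was 979 to 1189 units with stellate cells and 1096 to 1166 alone. TAGLN was detected on all 3 arrays with stellate cells and none alone. It thus met the detection filter only through the group where it was higher, and its change and p-values are not independent of that filter. COL6A3 reached the filter with 2 detections beside stellate cells and 1 alone, mostly through the group where it was higher. The change and p-values of COL6A3 are not independent of the filter either. Of 6 blood and endothelial markers, 2, CD68 and PECAM1, were measured, with summed intensities over the 6 of 1821 to 2107 units with stellate cells and 1566 to 1871 alone. The part of other cell types in the results was not tested.

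Among the members, CHST4 and GCNT3 were higher with stellate cells and FUT8 was lower, at a limma adjusted p under 0.05. CHST4 sulphates GlcNAc on mucin-type chains and GCNT3 makes the core 2 and core 4 branches of mucins, while FUT8 adds the core fucose of N-glycans, so the member that fell is no mucin-type enzyme. The 3 called members are 5.66% of the 53, beside 4.02% of the 18165 probes tested, and the 2 higher ones are 3.77% beside 2.01%, and the 1 lower one 1.89% beside 2.00%. The share of members called is thus near the background. With each array scaled to a common median no member passed with limma, and CHST4, GCNT3 and FUT8 had changes of 1.05, 0.65 and -0.93 (adjusted p = 0.0773, 0.231 and 0.0937). Of all tested probes 366 were higher and 364 lower, a split that became 83 and 437 with that scaling. The median log2 change of the members was 0.14, against -0.01 over all tested probes. Values above 0 were found in 36 of 53 members, 67.9%, beside 48.5% of all tested probes. Scaling to the median moved the change of all probes to -0.20 and that of the members to -0.05. Relative to all probes the members' median was 0.15 with quantile normalization and 0.16 with median scaling. It was smaller without background correction, at 0.062, and with the authors' deposited values, at 0.064.

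**Figure D1:**
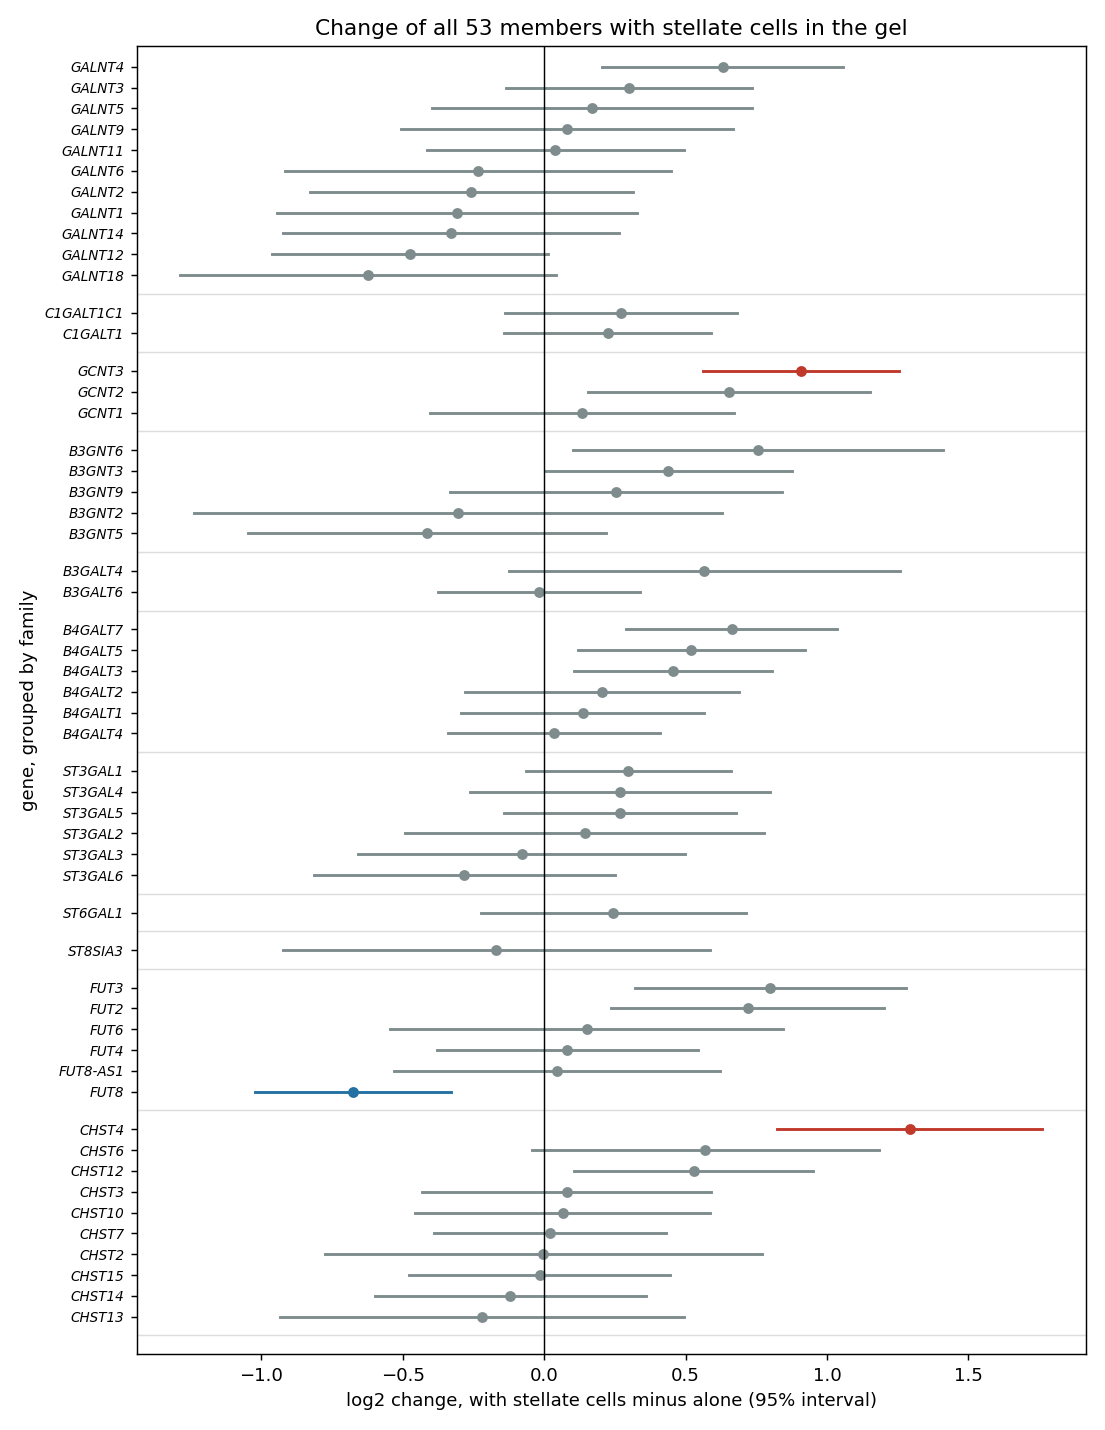
Log2 change with stellate cells minus alone (x axis) for each of the 53 members, grouped by family; points are limma estimates from 3 against 3 arrays and lines their 95% intervals, red where higher and blue where lower at an adjusted p under 0.05. CHST4 at 1.29 and GCNT3 at 0.91 are the coloured points above 0, FUT8 at -0.67 is the coloured point below 0, and most other intervals cross 0.

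Start-site windows of the 3 called members are printed to show what lies in front of the genes that moved. Each runs from 250 bases before to 50 after a RefSeq start (GRCh38.p14, plus strand, 5′ to 3′). Capitals mark matches, on either strand, to GGGCGG (the GC box), CCAAT (the CAAT box), TATAAA (the TATA box) and CACGTG (a form of the E box). Other forms of the E box were not searched for. No matches overlapped in these windows. For CHST4, which has 2 such windows, and FUT8, which has 3, one is shown for each gene, at chr16:71525870-71526169 for CHST4, chr15:59611533-59611832 for GCNT3 and chr14:65411613-65411912 for FUT8.
CHST4: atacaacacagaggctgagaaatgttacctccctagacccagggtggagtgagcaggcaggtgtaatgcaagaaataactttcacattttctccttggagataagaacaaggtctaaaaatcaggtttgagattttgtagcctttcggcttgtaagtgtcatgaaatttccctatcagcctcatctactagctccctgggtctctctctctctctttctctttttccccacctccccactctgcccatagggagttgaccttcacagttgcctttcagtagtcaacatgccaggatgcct
GCNT3: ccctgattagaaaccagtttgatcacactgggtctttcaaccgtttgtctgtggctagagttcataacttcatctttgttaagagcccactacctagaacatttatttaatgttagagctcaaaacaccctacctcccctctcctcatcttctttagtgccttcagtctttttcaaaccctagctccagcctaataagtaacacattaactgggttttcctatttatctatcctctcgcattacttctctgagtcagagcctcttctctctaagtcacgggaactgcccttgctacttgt
FUT8: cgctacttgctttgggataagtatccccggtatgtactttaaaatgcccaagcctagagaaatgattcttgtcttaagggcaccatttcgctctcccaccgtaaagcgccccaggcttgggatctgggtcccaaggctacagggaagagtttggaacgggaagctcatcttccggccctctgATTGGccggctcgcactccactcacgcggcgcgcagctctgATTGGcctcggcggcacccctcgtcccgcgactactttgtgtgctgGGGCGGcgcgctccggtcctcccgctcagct

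Where a gene has several windows, the one shown was chosen after they were seen. The FUT8 window shown holds 2 matches to CCAAT and 1 to GGGCGG and has a GC content of 59.7%. Of its other 2 windows, one has a GC content of 36.0% and none of the motifs, and the other one of 74.7% with 2 matches to GGGCGG. The windows shown for CHST4 and GCNT3 hold none of the 4 motifs and have GC contents of 46.0% and 42.3%, and the second CHST4 window holds none either and has 53%, against a median of 58.7% over all 35116 windows. GGGCGG occurred in 45.0% of all windows, CCAAT in 34.6%, TATAAA in 11.5% and CACGTG in 7.26%. Windows were available for 43 of the 53 members, 71 in all, with a median GC content of 66.3%; of these 63.4% held GGGCGG, 31.0% CCAAT, 5.63% CACGTG and 0 TATAAA. A match describes the letters of a window and is not a site, and a missing match says only that these letters are not there.

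Initiating transferases had values on both sides of 0. Of 19 GALNT genes on the array by symbol, antisense genes included, 11 were members and 0 passed the threshold with limma. An unadjusted limma p under 0.05 was found for 1, beside 18.3% of all tested probes. Values lay above 0 in 5 and below in 6, or above in 2 with median scaling. With that scaling 4 lay above the median of all probes. GALNT4, which prefers peptides that already carry GalNAc, had replicates 1, 2 and 3 at 7.55, 7.504 and 7.32 log2 units beside stellate cells and at 6.97, 6.85 and 6.66 alone. All its values with stellate cells lay above those alone, with a log2 change of 0.63 ± 0.20 (SE, limma adjusted p = 0.102). Its probe may also read the POC1B-GALNT4 read-through transcript, which covers the same locus. GALNT3, a broadly acting initiating transferase of secretory epithelia, had a change of 0.30 ± 0.20, also without overlap of the groups (limma adjusted p = 0.473).

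GALNT12, another initiating transferase, had log2 intensities of 8.69, 8.83 and 8.08 beside stellate cells and 8.71, 9.31 and 9.002 alone. Its groups overlapped and its change was -0.47 ± 0.22 (SE, limma adjusted p = 0.289), or -0.25 without replicate 3 with stellate cells (limma adjusted p = 0.404). GALNT18 had values of 6.12, 5.998 and 7.16 against 7.33, 6.73 and 7.09. The first 2 arrays with stellate cells were the lowest of the 6, but replicate 3, the array richest in ribosomal RNA signal, lay inside the range of the arrays alone. Its change was -0.62 ± 0.31 with all arrays (SE, limma adjusted p = 0.308) and -1.01 without replicate 3 (limma adjusted p = 0.0068). GALNT14 had a change of -0.33 ± 0.27, which ran from -0.62 without replicate 3 to -0.07 without replicate 2 with stellate cells, and the other members of the family, GALNT1, GALNT2, GALNT5, GALNT6, GALNT9 and GALNT11, had changes between -0.31 and 0.17. GALNT7, GALNT10, GALNT13, GALNT15, GALNT16 and GALNT17 were detected on no array.

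Genes for core 1 synthesis had small changes. C1GALT1, the core 1 galactosyltransferase, had log2 intensities of 8.43, 8.23 and 8.44 beside stellate cells and 8.04, 8.16 and 8.23 alone. The groups did not overlap, though replicate 2 with stellate cells and replicate 3 alone were both at 8.23 to 2 decimals. The change was 0.22 ± 0.17 (SE), with a 95% interval from -0.14 to 0.59 (limma adjusted p = 0.530), and with median scaling its sign turned, to -0.03. C1GALT1C1, the chaperone without which C1GALT1 is degraded, had a change of 0.27 ± 0.19 (SE, limma adjusted p = 0.495). Its second detected probe had 0.45, with groups that did not overlap (limma adjusted p = 0.290).

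All 3 branching enzymes measured had values above 0, or 2 of 3 with median scaling, and 1 rose. With that scaling all 3 lay above the median of all probes. GCNT3, the mucin-type core 2 and core 4 enzyme, had replicates 1, 2 and 3 at 11.39, 11.47 and 10.98 log2 units beside stellate cells and at 10.43, 10.28 and 10.40 alone. Every array with stellate cells was above every array alone, and replicate 3 was the lowest of its group. GCNT3 rose 1.88-fold, from a mean of 10.37 ± 0.08 to 11.28 ± 0.26 (SD, n = 3 arrays each, limma adjusted p = 0.0092). The rise kept its size when 1 array was left out, with log2 changes from 0.82 to 1.05, but GCNT3 missed the threshold when replicate 1 beside stellate cells or replicate 2 or 3 alone was removed (limma adjusted p = 0.0636, 0.0609 and 0.0622).

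GCNT2, which makes the I branches of poly-lactosamine chains, had log2 intensities of 7.22, 6.86 and 7.31 beside stellate cells and 6.20, 6.48 and 6.76 alone. Its groups did not overlap, and its change of 0.65 ± 0.23 did not pass (SE, limma adjusted p = 0.146). GCNT1, the core 2 enzyme found in leukocytes and many epithelia, had a change of 0.13 in the same fit. GCNT4 and GCNT7 were detected on no array.

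Core 3 formation and chain extension rest on the B3GNT enzymes, of which 5 were members and 0 passed with limma. An unadjusted limma p under 0.05 was found for 2, B3GNT6 and B3GNT3, beside 18.3% of all tested probes. B3GNT6, the core 3 synthase, was detected on all 3 arrays with stellate cells and on 1 of 3 alone. The detection filter was thus met through the group where its signal was higher, and its change and p-values are not independent of that filter. Its log2 intensities were 5.26, 5.79 and 6.20 beside stellate cells and 5.36, 4.61 and 5.005 alone, so the groups overlapped by 1 array. The change was 0.76 ± 0.30 (SE, limma adjusted p = 0.198), and 0.26 without background correction. B3GNT3, which extends core 1 chains and takes part in making L-selectin ligands, had a change of 0.44 ± 0.20 (SE, limma adjusted p = 0.269).

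B3GNT5, which starts lacto-series glycolipids, had a change of -0.41 ± 0.29, and B3GNT9 one of 0.25. B3GNT2, the main poly-lactosamine synthase, had log2 intensities of 7.59, 7.68 and 5.77 beside stellate cells and 6.82, 7.67 and 7.46 alone. Replicate 3 with stellate cells was the lowest of the 6 arrays by over 1 log2 unit. The change of -0.30 ± 0.43 became 0.32 without it (SE, limma adjusted p = 0.766 and 0.398).

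The B4GALT galactosyltransferases had values above 0 in all 6 members, or in 3 of 6 with median scaling, 5 of 6 there being above the median of all probes. None passed with limma, and 3 had an unadjusted p under 0.05, beside 18.3% of all tested probes. B4GALT7, which adds the first galactose of the proteoglycan linker and so lies outside mucin synthesis, had log2 intensities of 9.13, 9.35 and 9.32 beside stellate cells and 8.86, 8.43 and 8.53 alone. Its groups did not overlap, and its change of 0.66 ± 0.17 lay next to the threshold (SE, limma adjusted p = 0.0515). It passed with cyclic loess, with the authors' deposited values, over the probes detected on all 6 arrays, with array weights and without replicate 3 with stellate cells, at limma adjusted p of 0.0483, 0.0485, 0.0482, 0.0072 and 0.0184. It missed the threshold in the other settings, with a change of 0.40 under median scaling (limma adjusted p = 0.594), adjusted p of 0.101 without the filter or the intensity trend, and of 0.0665 to 0.225 in the other 5 fits that leave out an array.

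B4GALT5, a lactosylceramide synthase, had log2 intensities of 11.73, 11.52 and 10.97 beside stellate cells and 10.95, 10.81 and 10.89 alone. Replicate 3 with stellate cells lay next to the arrays alone, and the change was 0.52 ± 0.18 with it (SE, limma adjusted p = 0.149) and 0.74 without it (limma adjusted p = 0.0017). B4GALT3, which makes lactosamine on N-glycans, had a change of 0.46 ± 0.16 and no overlap (SE, limma adjusted p = 0.149). B4GALT1, B4GALT2 and B4GALT4 had changes between 0.04 and 0.20. Of the B3GALT enzymes, B3GALT4, a ganglioside galactosyltransferase, had a change of 0.57 ± 0.32 (SE, limma adjusted p = 0.381), or 0.99 without replicate 3 with stellate cells (limma adjusted p = 0.0103). B3GALT6, which adds the second galactose of the proteoglycan linker, had -0.02, with a 95% interval from -0.38 to 0.34.

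**Figure D2:**
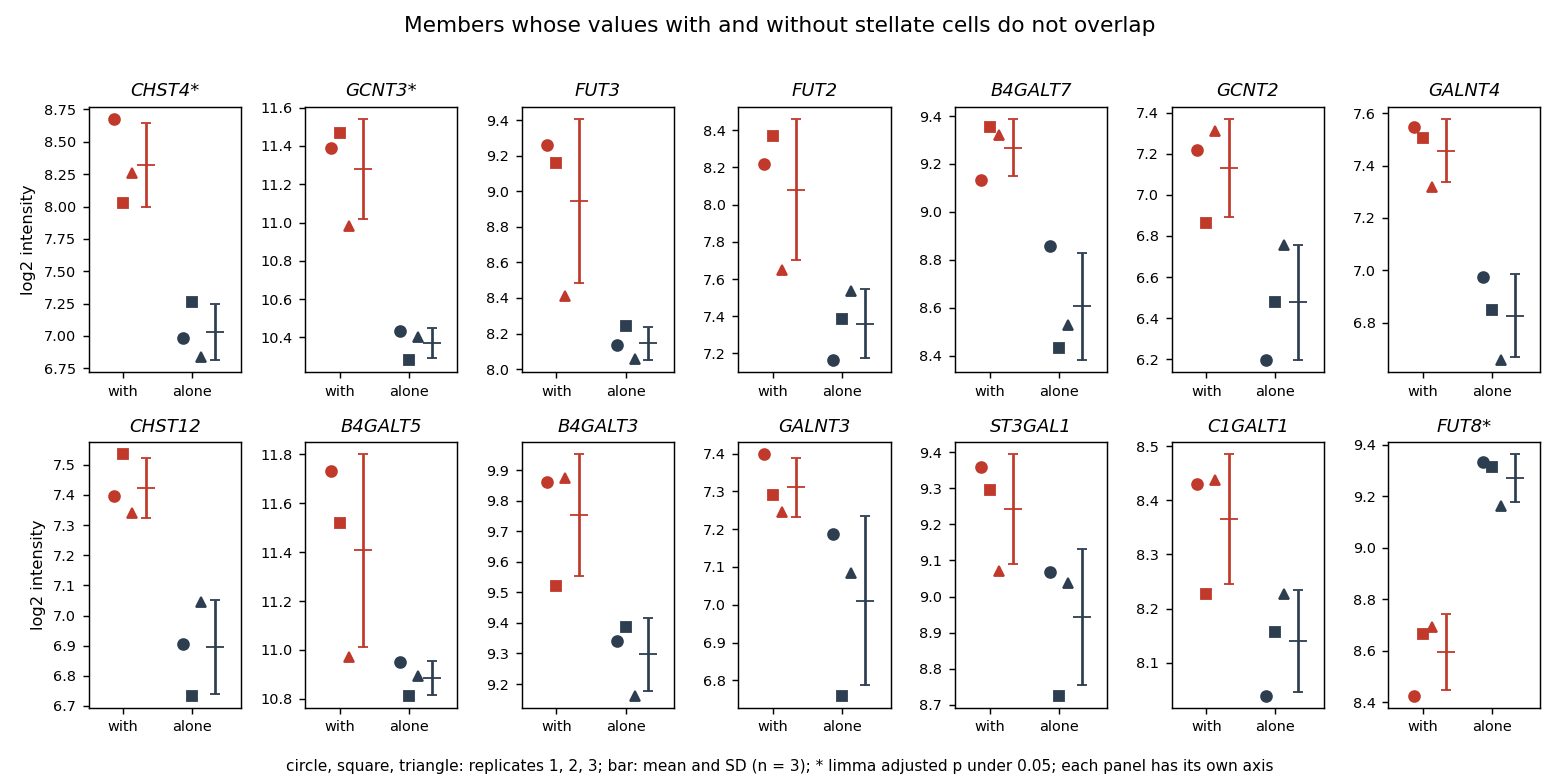
Log2 intensity (y axis, a scale of its own in each panel) on every array for the 14 members whose groups did not overlap; red symbols are Capan1 with stellate cells, dark symbols Capan1 alone, circles, squares and triangles are replicates 1, 2 and 3, bars give mean and SD (n = 3). In 13 of the 14 the arrays with stellate cells are the higher ones, FUT8 is the exception, and in 8 of the 13 the red triangle, replicate 3, is the lowest of its group.

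The arrays of the 2 groups were fully apart in 14 members, 26.4%, and in 23.6% of all tested probes. Of these 13 were higher with stellate cells, 24.5% of the members against 11.8% of the probes, and 1 was lower, 1.89% against 11.8%. With limma's unadjusted p, 12 members were higher and 1 lower at 0.05, together 24.5% against 18.3% of the probes. The members share arrays and were not tested as a list.

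Sialyltransferases showed no call. Of 6 ST3GAL genes on the array all 6 were members and 0 passed with limma. An unadjusted limma p under 0.05 was found for 0 of these 6, beside 18.3% of all tested probes. The changes ran from -0.28 for ST3GAL6 to 0.30 for ST3GAL1. ST3GAL1, which caps core 1 with sialic acid and thereby blocks core 2 branching, had log2 intensities of 9.36, 9.29 and 9.07 beside stellate cells and 9.07, 8.73 and 9.04 alone. Its groups were apart only by less than the rounding of these values, and the change was 0.30 ± 0.17 (SE, limma adjusted p = 0.381). Its second detected probe, at 8.15, 8.27 and 8.18 against 7.83, 7.69 and 7.72, gave 0.45 (limma unadjusted p = 0.0202, adjusted p = 0.172).

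ST3GAL4, which sialylates lactosamine ends on the way to sialyl Lewis structures, had a change of 0.27 ± 0.24 (SE, limma adjusted p = 0.618), or 0.55 without replicate 3 with stellate cells (limma adjusted p = 0.0482). ST6GAL1, which caps N-glycan lactosamine with sialic acid, had log2 intensities of 8.22, 8.19 and 8.25 beside stellate cells and 7.55, 8.40 and 7.97 alone. The arrays with stellate cells lay within the range of those alone. The change of 0.25 ± 0.22 did not pass (SE, limma adjusted p = 0.606) and was -0.01 with median scaling. ST8SIA3, of the family that adds sialic acid to sialic acid, was the only ST8SIA member of 6 on the array, was detected on 3 arrays in all, and had a change of -0.17 ± 0.35. ST8SIA1, ST8SIA2, ST8SIA4, ST8SIA5, ST8SIA6 and ST6GAL2 were detected on no array.

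Of 6 FUT members FUT8 fell, and the other 5 had values above 0, or 3 with median scaling. With that scaling 5 of the 6 lay above the median of all probes. FUT8 had replicates 1, 2 and 3 at 8.43, 8.67 and 8.69 log2 units beside stellate cells and at 9.33, 9.31 and 9.16 alone. All arrays with stellate cells were below all arrays alone, and replicate 3 was the highest of its group. FUT8 fell by 0.67 ± 0.16 on the log2 scale (SE), from a mean of 9.27 ± 0.09 to 8.59 ± 0.15 (SD, n = 3, limma adjusted p = 0.0366). Leaving out any array other than replicate 3 with stellate cells took the call away in limma (adjusted p from 0.0815 to 0.169, with changes from -0.73 to -0.59). It also missed the threshold without the filter on dim probes or without the intensity trend (limma adjusted p = 0.0764 and 0.0769). FUT8-AS1, which lies in the same locus on the other strand, had a change of 0.05 ± 0.26.

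FUT3, the Lewis enzyme that completes Lewis a and sialyl Lewis a, had log2 intensities of 9.26, 9.16 and 8.41 beside stellate cells and 8.14, 8.24 and 8.05 alone. Replicate 3 with stellate cells was much nearer to the arrays alone than the other 2 were, though above them. The change was 0.80 ± 0.22 (SE, limma adjusted p = 0.0657). It was 1.06 without that array (limma adjusted p = 0.00025). FUT3, FUT5 and FUT6 are near-identical neighbours on chromosome 19, so the share of each gene in this probe is uncertain. The probe of FUT5 was detected on no array, and that of FUT6 had a change of 0.15.

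FUT2, the secretor enzyme that makes the H antigen in epithelia, had log2 intensities of 8.22, 8.37 and 7.65 beside stellate cells and 7.16, 7.38 and 7.53 alone. Here too replicate 3 with stellate cells was the lowest of its group and still above the arrays alone. The change was 0.72 ± 0.22 (SE, limma adjusted p = 0.0983), or 0.93 without it (limma adjusted p = 0.0025). FUT4, another Lewis-type fucosyltransferase, had a change of 0.08. FUT1, which makes the H antigen of red cells, was detected on 2 arrays, both with stellate cells, and FUT7 on none.

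The sulphotransferases held the largest change of the group. CHST4 had replicates 1, 2 and 3 at 8.68, 8.03 and 8.26 log2 units beside stellate cells and at 6.98, 7.26 and 6.84 alone. The groups were well apart on every array, and replicate 3 lay between the other 2 of its group. CHST4 rose 2.45-fold, from a mean of 7.03 ± 0.22 to 8.32 ± 0.33 (SD, n = 3, 95% interval 1.77-fold to 3.39-fold, limma adjusted p = 0.0070). Without background correction its log2 change was 0.83 and not 1.29 (limma adjusted p = 0.0075). Fits that leave out an array gave changes from 1.12 to 1.44, and CHST4 missed the threshold when replicate 1 beside stellate cells or replicate 3 alone was removed (limma adjusted p = 0.0501 and 0.0629).

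The other 9 CHST members had no call. CHST12, which sulphates chondroitin, had log2 intensities of 7.40, 7.53 and 7.34 beside stellate cells and 6.90, 6.73 and 7.05 alone, without overlap, and a change of 0.53 ± 0.19 (SE, limma adjusted p = 0.164). CHST6, which sulphates keratan chains, had 8.30, 8.04 and 7.18 against 7.61, 7.02 and 7.18. Replicate 3 with stellate cells lay among the arrays alone, and the change was 0.57 ± 0.28 (SE, limma adjusted p = 0.310), or 0.90 without it (limma adjusted p = 0.0069). CHST15, which makes chondroitin chains with 2 sulphates on a sugar, had a change of -0.02 ± 0.21. The changes of CHST2, CHST3, CHST7, CHST10, CHST13 and CHST14, of which CHST2 can sulphate the same kind of sugar as CHST4, ran from -0.22 to 0.08. CHST2 was detected on only 3 arrays and had a 95% interval from -0.77 to 0.77. CHST8, CHST9 and CHST11 were detected on no array, and CHST5 on 1.

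Without replicate 3 with stellate cells 12 of the 53 members passed, 10 higher and 2 lower, beside 15.1% of the tested probes. The higher ones were CHST4, GCNT3, FUT3, FUT2, B4GALT5, B4GALT7, B3GALT4, CHST6, GALNT4 and ST3GAL4, and the lower ones FUT8 and GALNT18. Leaving out any other array gave 0 to 2 members and 0.842% to 1.66% of the probes. Of the 3 members called with all arrays, CHST4 passed in 4, GCNT3 in 3 and FUT8 in 1 of the 6 fits that leave out an array. For the members that missed the threshold the precision differed: over all 53, the 95% interval lay within 2-fold in either direction in 39 and within 1.5-fold in 7.

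**Figure D3:**
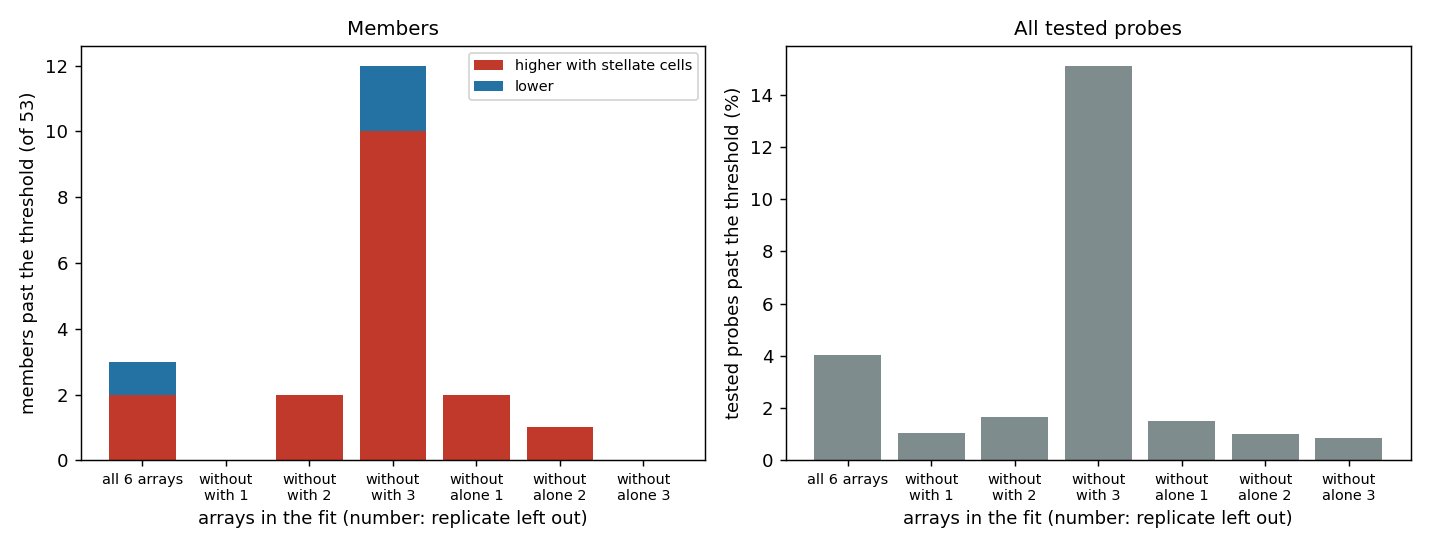
Number of members past the threshold, red higher and blue lower with stellate cells (left y axis, of 53), and percent of all tested probes past it (right panel), for the fit on all 6 arrays and for fits that leave out the array named on the x axis. Without replicate 3 with stellate cells the bars reach 12 members and 15.1% of probes; without any other array they lie at 0 to 2 members.

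Genes that supply and surround these enzymes were taken from 6 lists. Of 15 measured genes of donor sugar synthesis 1 rose, 6.67% beside the background of 4.02%. Past the threshold were 3 without replicate 3 with stellate cells, beside 15.1% of all tested probes, and 0 with median scaling. The list had a median log2 change of 0.24 with 11 values above 0, or 7 with median scaling. With that scaling 9 lay above the median of all probes. The gene that rose was GNE, the rate-limiting enzyme of sialic acid synthesis, with log2 intensities of 11.19, 11.04 and 10.83 beside stellate cells and 10.50, 10.16 and 10.25 alone. Its groups did not overlap, and it rose 1.64-fold (limma adjusted p = 0.0251), a call lost in 5 of the 6 fits that leave out an array and kept without replicate 3 with stellate cells (limma adjusted p = 0.0014). It was also lost with median scaling, at a change of 0.46, and without the intensity trend (limma adjusted p = 0.453 and 0.0802). TSTA3 (now GFUS), which makes GDP-fucose, had a change of 0.52 ± 0.16, and GALT, of galactose use, 0.45 ± 0.18 (SE).

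Transporters of donor sugars into the Golgi had values above 0 in 8 of 8 measured genes, or 4 of 8 with median scaling. Their median was 0.28 with quantile normalization. Median scaling took the median of all probes to -0.20, and 8 of 8 lay above that median. None passed with limma and 2 had an unadjusted p under 0.05, beside 18.3% of all tested probes. Without replicate 3 with stellate cells 3 passed, beside 15.1% of the probes. SLC35A2, the UDP-galactose transporter, had a change of 0.58 ± 0.16 (SE, limma adjusted p = 0.0748), SLC35D2 one of 0.66 ± 0.22 and SLC35A3 one of 0.33 ± 0.16. Of 15 Golgi tethers and related proteins 0 passed and 5 had an unadjusted limma p under 0.05, beside 18.3% of the probes. Their median was 0.30, and 14 had values above 0, or 8 with median scaling. With that scaling 14 lay above the median of all probes. COG6, a subunit of the complex that tethers Golgi vesicles, had a change of 0.83 ± 0.21 next to the threshold (SE, limma adjusted p = 0.0503). GOLGA2, a Golgi matrix protein, had 0.60 ± 0.20 and GOLM1, a Golgi membrane protein, 0.57 ± 0.19. Without replicate 3 with stellate cells 5 of the 15 genes passed, beside 15.1% of the probes.

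The list for N-glycan branching had a median of 0.22 and 10 of 12 values above 0, or 5 with median scaling. With that scaling 9 lay above the median of all probes. Of the 12 measured genes 1 rose, 8.33% beside 4.02%. That gene, FUCA1, encodes the lysosomal fucosidase, which removes fucose and does not branch N-glycans. It had log2 intensities of 9.71, 9.45 and 9.04 beside stellate cells and 8.53, 8.59 and 8.48 alone, a rise of 1.83-fold (limma adjusted p = 0.0236). Its groups did not overlap, and the call was kept in 1 of the 6 fits that leave out an array, that without replicate 3 with stellate cells. In that fit 3 genes of the list passed, beside 15.1% of all tested probes. The FUCA1 call was lost with median scaling, at a change of 0.60 and with 0 genes of the list past the threshold, and without the intensity trend (limma adjusted p = 0.370 and 0.0621). MGAT4A, a branching enzyme, had a change of 0.89 ± 0.23 (SE, limma adjusted p = 0.0527) and MAN1A1, a trimming mannosidase, 0.68 ± 0.25.

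Of 8 measured mucin-type enzymes outside the naming rule 0 passed with limma, with a median of 0.10. An unadjusted limma p under 0.05 was found for 0 of the 8, beside 18.3% of all tested probes. Without replicate 3 with stellate cells 0 passed, beside 15.1% of the probes, with a median of -0.04. ST6GALNAC2, which adds sialic acid to the first GalNAc, had a change of 0.13 ± 0.23, B3GALNT2, an enzyme of O-mannose chains, -0.40 ± 0.22 and B4GALNT4 0.22 ± 0.24 (SE). Of 7 sialidases and transferases of O-fucose or O-mannose 0 passed with limma, with a median of -0.04. An unadjusted limma p under 0.05 was found for 2, beside 18.3% of all tested probes. Without replicate 3 with stellate cells 2 passed higher, POFUT2 and NEU1 (limma adjusted p = 0.0239 and 0.0247), beside 15.1% of the probes. The median of the list was 0.08 in that fit. With array weights 3 passed, beside 18.5% of the probes. POFUT2, an O-fucose transferase, had 0.49 ± 0.16, NEU1, the lysosomal sialidase, 0.55 ± 0.18 and POMT1, an O-mannose transferase, 0.43 ± 0.24 (SE). MUC1, a membrane mucin, rose 2.29-fold in the fit on all arrays (limma adjusted p = 0.0015) and passed in all 6 fits that leave out an array.

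**Figure D4:**
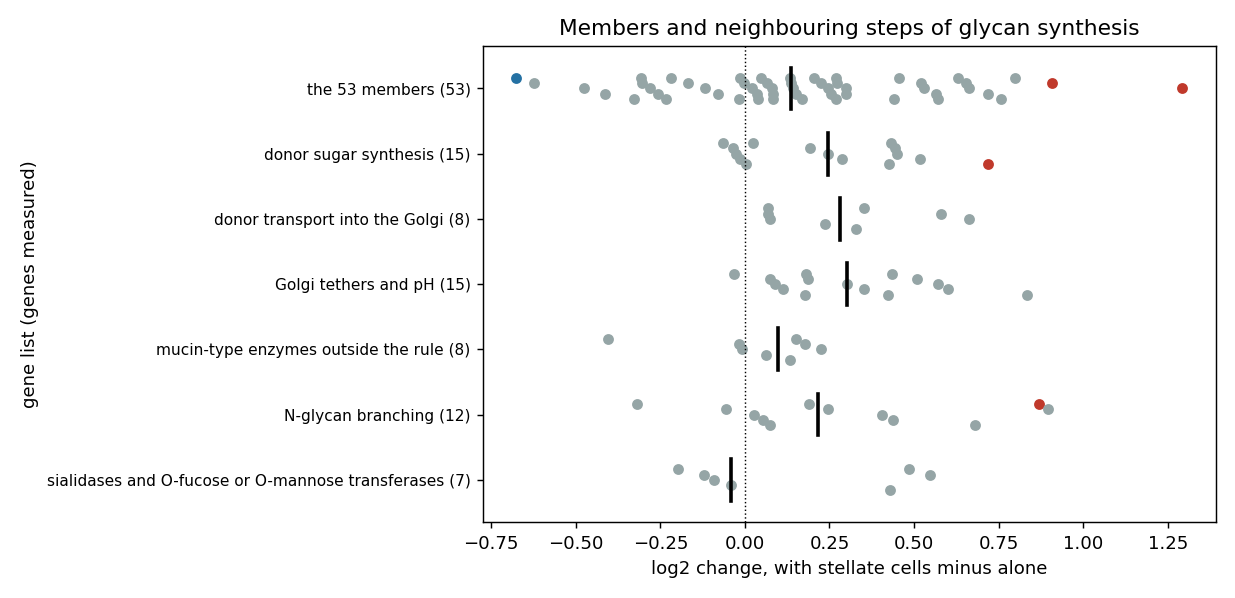
Log2 change with stellate cells minus alone (x axis) for the 53 members and for the measured genes of 6 related lists (y axis, number of genes in brackets); each point is a gene, red where it rose and blue where it fell at an adjusted p under 0.05, and black bars are medians. The medians lie between -0.04 and 0.30, and coloured points outside the members are GNE and FUCA1 alone.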

How the data were processed

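Per the file headers, the deposited table holds 1 intensity and 1 detection p-value per probe and array, for 6 arrays, without normalization between them. The authors' deposited value table, normalized linear intensity in the same rank order (Spearman rho = 1), served as an alternative. The submitters' processing notes name BeadStudio and GenomeStudio 2011.1 without saying for which step. No column of other samples was present.

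Signals were corrected by normexp in limma, with negative control levels inferred from the detection p-values and an offset of 16, then quantile normalized and taken to log2. Probes with detection p under 0.05 on 3 or more arrays, 18165 of 47228, entered lmFit and eBayes with an intensity trend (limma 3.58.1, R 4.3.3, two-sided, Benjamini-Hochberg over all tested probes, threshold 0.05). The script was tested on simulated data. Since no source calls the replicates separate cultures, the p-values reflect variation among these samples only, and that may be technical. The number of arrays limits the precision.

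Genes were named through the platform annotation, and all 53 member symbols are current in RefSeq (GRCh38.p14), which also gave the start-site windows. Members and lists were chosen with earlier results of these data known. The rule for named genes took members past the threshold, the highest mean and the smallest p of each family, the 5 largest changes each way, the 3 smallest p of each related list and the cell type markers. All other members given a value, among them the rest of those whose groups did not overlap, CHST6, ST3GAL4, B3GNT2 and FUT8-AS1, were named after their values were seen. Alternatives concerned background, offset, scaling, filter, variance model, array weights, a replicate block, the naming rule and left-out arrays. Figures were drawn with matplotlib 3.10.9.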

Additional observations from a re-analysis of the deposited data

How the results depend on the processing

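Members past the threshold, 2 higher and 1 lower, became 3 and 1 with cyclic loess, the authors' values or the probes detected on all 6 arrays, 0 and 0 with median scaling, 2 and 0 without the filter or the intensity trend, and 12 and 2 with array weights, which gave replicate 3 with stellate cells a weight of 0.27. Leaving out 1 array gave 0 to 10 higher and 0 to 2 lower. Probes past it, 366 higher and 364 lower, became 83 higher with median scaling, 201 and 191 without the trend and 1632 and 1725 with array weights, and ranged from 88 to 1352 higher and 65 to 1392 lower when 1 array was left out. The members' median of 0.14 moved to 0.0567 without background correction, to 0.0584 with the authors' values and to -0.0452 with median scaling, which took the median of all probes to -0.20. Left-out arrays gave 0.11 to 0.19.

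The deviations of same-numbered replicates had correlations of -0.02, -0.03 and 0.08, and those of replicates with other numbers ran from -0.08 to 0.09. With 3 arrays in each group these values cannot decide whether the numbers pair the samples. With the replicate number as a block 3 members passed higher and 0 lower: FUT3 passed and FUT8 did not (limma adjusted p = 0.0427 and 0.0571). Of the other genes followed through the settings, the block changed the call of COG6 and of ACTA2, a stellate marker (limma adjusted p = 0.0422 and 0.0428).

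Members with values above 0 numbered 36 of 53, and 21 with median scaling. Above the median of all probes lay 37, and 35 with median scaling. Among the genes followed through every setting, signs turned with array weights for B3GALT6 (0.0131), B3GNT2 (0.17) and CHST15 (0.14), and with median scaling for C1GALT1 (-0.0297) and ST6GAL1 (-0.0072). With 1 array left out, changes ran from -0.10 to 0.062 for B3GALT6, -0.63 to 0.32 for B3GNT2, -0.16 to 0.22 for CHST15, -0.10 to 0.29 for FUT8-AS1 and -0.49 to 0.11 for ST8SIA3. The cause was not tested. Asking for a digit after FUT alone adds ST6GALNAC2, ST6GALNAC4 and ST6GALNAC6; that reading, current symbols and every detected probe each gave 2 higher and 1 lower. A slide block was not run because the headers name no slides. Signals close to background limit the fold changes of dim probes.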
